A study of Mus musculus with 15 samples.

Results

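The effect of lowering Hdac2 alone was read from 6 of the 15 arrays of the study. These were the 3 arrays titled with the small interfering RNA and ethanol and the 3 arrays titled with its scrambled version and ethanol, and they were compared across all 13382 genes that could be tested. The cells were primary fibroblasts of male mouse embryos. In both groups Hdac1 was floxed (fl/fl) but not induced to recombine, and the cells carried a retrovirus for Cre-ERT2, a Cre recombinase that acts only when tamoxifen is present. A further retrovirus made a hairpin micro-RNA against HDAC2, giving the genotype labelled HDAC2 Kd, or a scrambled hairpin, giving the genotype labelled WT. Ethanol is a usual solvent of tamoxifen, so these cells were meant to keep Hdac1. Groups used beside them carried 200 nM tamoxifen: scrambled hairpin (labelled HDAC1 KO), hairpin against HDAC2 (labelled HDAC1/2 KO/Kd) and cells with HDAC1 +/+, whose viruses the labels do not state. Each group had 3 arrays. The labels do not state the embryo's age and strain, how many embryos, infections or cultures lie behind the 3 arrays of a group, and whether 1 hairpin sequence or several were used. A p-value below thus reflects how far arrays scatter within the 5 groups, which were fitted together, and that scatter could be purely technical.

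HDAC2 and its close relative HDAC1 remove acetyl groups from lysines of histones and of other proteins. They are the catalytic subunits of the Sin3, NuRD and CoREST complexes, which transcription factors bring to promoters and enhancers. Removal of acetyl groups generally lowers transcription, although these complexes also sit at active genes. Both enzymes usually occur together in the same complexes, and fibroblasts express both.

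Hdac2 RNA was strongly reduced, and no other class I deacetylase passed the test. On the brightest Hdac2 probe set the scrambled arrays read 6536, 7354 and 7264 and the knockdown arrays 1028, 939.5 and 907.6 (linear intensity in the deposited units). Every knockdown array was far below every scrambled one, at 12.9% to 14.6% of the scrambled mean. The log2 fold change was -2.86 ± 0.07 (SE), with a limma adjusted p of 7.76e-13. On another probe set the knockdown arrays lay at 13.3% to 14.7% of the scrambled mean, and the weakest probe set read 17.9 to 27.1 in all 6 arrays, close to the middle of all probe sets. Here and below, fold changes are on the log2(intensity + 16) scale, which understates the change of weakly expressed genes, ± after a mean intensity is an SD over 3 arrays, and ± after a fold change is an SE.

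Hdac1 read 3499, 3498 and 3673 in scrambled cells and 3841, 3757 and 3966 in knockdown cells. The knockdown arrays were slightly higher without overlap, but the log2 fold change was 0.12 ± 0.15 with a limma adjusted p of 0.718. That SE includes the scatter of the arrays with deleted Hdac1, where the gene read 105.8 to 203. Hdac1 was also not called with only the compared arrays in the fit. Hdac3, the deacetylase of the NCoR and SMRT complexes, was at 1316 ± 73.8 and 1269 ± 55.9, and Hdac8, a class I enzyme that works outside these complexes, at 83.0 ± 16.4 and 93.0 ± 2.61. Neither passed the threshold of an adjusted p of 0.05. Of 7 tested class II and IV deacetylases 1 rose and 0 fell. It was Hdac9, from 15.8 ± 0.935 to 28.6 ± 2.99 (log2 fold change 0.48), and its call was lost without knockdown array 1 (limma adjusted p 0.05029).

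**Figure D1:**
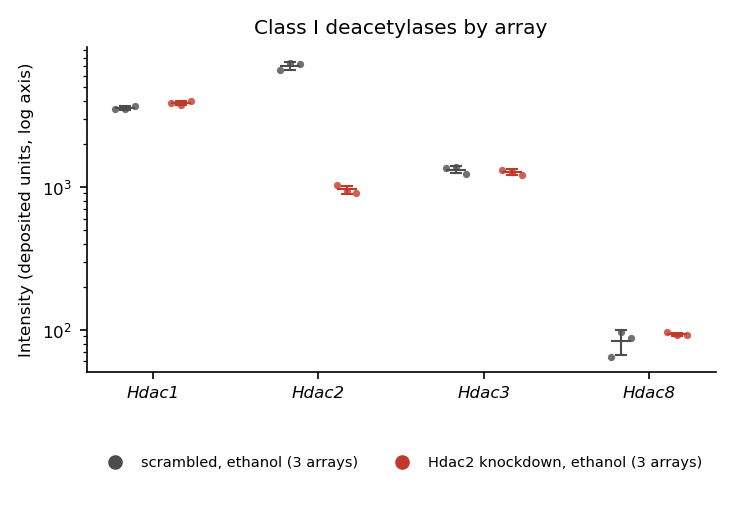
Intensity of the 4 class I deacetylases (log axis, deposited units) in 3 scrambled arrays (grey) and 3 Hdac2 knockdown arrays (red), both with ethanol. Points are arrays, and bars give the mean and SD. Hdac2 fell from a mean of 7051 to 958, while the other genes lay close together in both groups.

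Among 33 tested subunits of the Sin3, NuRD, CoREST and related complexes 3 rose and 1 fell. That is 12.1% called, close to the 10.5% of all genes, of which 7.50% were higher and 3.02% lower. The median log2 fold change of the list was 0.04, as over all genes. Mideas, a subunit gene of the MiDAC deacetylase complex, rose from 725 ± 73.0 to 960 ± 35.1. It kept its call in every fit with an array left out, but not when its probe sets were averaged (0.12). Kdm1a, the histone demethylase of CoREST, and Sin3b, a scaffold of Sin3, rose by 0.28 and 0.24 and lost their calls without any one of the 6 arrays. The lower call was Gatad2b, a NuRD subunit, on its brightest probe set (1550 ± 230 against 862 ± 160), while another of its probe sets was higher (log2 fold change 0.37), so the gene has no single direction here; its lower call was lost without scrambled array 1, scrambled array 2 or knockdown array 3. Kat2b, an acetyltransferase of the opposite activity, was the 1 gene that rose among 23 tested acetyltransferases and bromodomain readers, with 1104, 1097 and 1064 against 1596, 1685 and 1687 (log2 fold change 0.60 ± 0.06, limma adjusted p 6.04e-06). Of 27 enzymes of DNA methylation and Polycomb silencing 1 rose, the H3K27 demethylase gene Kdm6b (0.42), and 0 fell. The mean of the Kdm6b probe sets gave 0.04 (limma adjusted p 0.8105), and another of them, at 428 in scrambled and 357 in knockdown cells, did not pass.

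Across the transcriptome 1408 genes passed the threshold, Hdac2 included, which was 10.5% of the genes tested. Of these 1004 (7.50%) were higher and 404 (3.02%) were lower in knockdown cells. Each list count in the text stands against these shares. Most changes were small: the median size was 0.44 on the log2 scale for the higher genes and 0.49 for the lower genes, and 80 genes (0.598%) rose and 48 (0.359%) fell by 2-fold or more. In 4631 genes (34.6%) the 3 knockdown arrays all lay on 1 side of the 3 scrambled arrays, 3179 of them above and 1452 below.

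The excess of higher genes depended on how the arrays were scaled. As deposited, 71.3% of the called genes were higher. After quantile normalization 1111 were higher and 973 lower (53.3% higher), and after centring each array on its median 903 were higher and 1087 lower (45.4%). The median log2 fold change over all genes was 0.04, 0.00 and -0.03 in these 3 settings. Of the 1408 genes, 1321 were also called after quantile normalization and 1259 after centring. Leaving out knockdown array 1 lowered the higher genes to 620, and leaving out scrambled array 2, knockdown array 2 or knockdown array 3 lowered the lower genes to 262, 259 and 269.

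**Figure D2:**
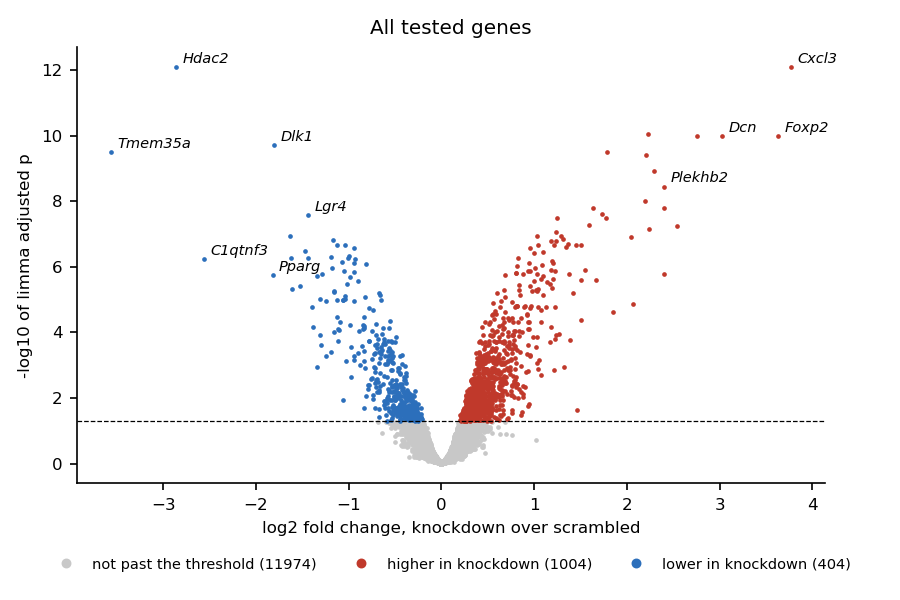
Log2 fold change of knockdown over scrambled cells (horizontal) and -log10 of the limma adjusted p (vertical) for the 13382 tested genes. Red points (1004) were higher and blue points (404) lower in knockdown cells, the dashed line is the threshold of 0.05, and Cxcl3 and Foxp2 lie farthest to the right and Tmem35a farthest to the left.

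The genes that rose most came from unrelated families: a chemokine, a transcription factor, secreted matrix and anticoagulant proteins and a neuropeptide. Cxcl3 encodes a chemokine that attracts neutrophils. It read 22.4, 21.2 and 21.3 in scrambled cells, near the middle of all probe sets, and 527.8, 433 and 540.5 in knockdown cells, a log2 fold change of 3.77 ± 0.10 (limma adjusted p 7.76e-13). Foxp2, a forkhead transcription factor best known for its part in brain circuits of vocal learning, read 48.7, 59.1 and 38.0 against 886.1, 704.3 and 745.3 (log2 fold change 3.63 ± 0.14). Both genes were near background in every scrambled array and well above it in every knockdown array, and 4 of the 6 tested Foxp2 probe sets were called higher and 0 lower.

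Decorin, the product of Dcn, is a small leucine-rich proteoglycan that binds collagen fibrils and TGF-beta. Dcn read 25.1, 19.9 and 22.3 in scrambled cells and 294.3, 310.8 and 288.8 in knockdown cells (log2 fold change 3.03 ± 0.12, limma adjusted p 9.8e-11). Tfpi, the inhibitor of the tissue factor pathway of coagulation, read 79.8, 93.8 and 61.5 against 661, 585.1 and 600.8 (2.76 ± 0.11), and all 4 of its tested probe sets were called higher. For both genes the lowest knockdown array was several times the highest scrambled array.

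Pir, an iron-binding nuclear protein gene, rose from 37.9 ± 14.6 to 293 ± 46.1 and Plekhb2, a membrane trafficking gene, from 96.5 ± 4.09 to 578 ± 11.6. Lmcd1, a LIM-domain cofactor that interacts with GATA6, rose from 71.6 ± 19.4 to 440 ± 50.6, and Rcan2, a regulator of calcineurin, from 67.7 ± 6.25 to 426 ± 44.2. The neuropeptide gene Vip read 665.2, 673.7 and 565.7 in scrambled cells against 3393, 3079 and 2986 in knockdown cells (log2 fold change 2.29 ± 0.11, limma adjusted p 1.19e-09). The groups did not overlap.

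The other genes in this group were Plac8, Ptgis (prostacyclin synthase), Tmtc1 (an O-mannosyltransferase of the endoplasmic reticulum), Ripk3 (the kinase that drives necroptosis), Sorbs2 (an adaptor of stress fibres) and Ptprz1 (a receptor phosphatase of neural cells). Their log2 fold changes ran from 2.04 (Ptprz1) to 2.24 (Plac8). Ripk3 read 220.4, 167.8 and 201.9 against 968.3, 974.2 and 935.6, with no overlap between the groups.

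The genes that fell most were again mixed, with Hdac2 second in the order. Tmem35a, which encodes a chaperone of nicotinic acetylcholine receptors, fell further than Hdac2, from 522.4, 729.9 and 610.1 to 37.7, 32.0 and 44.0 (log2 fold change -3.56 ± 0.16, limma adjusted p 3.17e-10). C1qtnf3, a secreted C1q-like protein gene of cartilage and fat, read 1276, 1786 and 1884 against 290.7, 252.4 and 245 (-2.56 ± 0.21). Pparg, the master transcription factor of fat cells, fell from 303, 356.4 and 319.2 to 105.2, 63.4 and 77.6 (-1.82 ± 0.17). In each of these genes the groups were well separated.

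Dlk1, an imprinted gene whose product inhibits fat cell formation, fell from 4450, 4265 and 4054 to 1233, 1196 and 1189 (log2 fold change -1.80 ± 0.08, limma adjusted p 1.93e-10). This value comes from a probe set that may match several transcripts; the other tested Dlk1 probe set read 20.1 in both groups and gave no call. Mmp23, Cdh6, Ndnf, Kcnn4, Pcsk6, Lgr4, Pcolce2, Bnc1, Ccl7 and Sned1 completed the 15 genes that fell most, with log2 fold changes from -1.63 (Mmp23) to -1.34 (Sned1). They encode a matrix protease, a cadherin, a secreted neuron-derived protein, a calcium-activated potassium channel, a proprotein convertase, a receptor for R-spondins, an enhancer of procollagen processing, the zinc finger protein basonuclin, a chemokine and a stromal matrix protein. Lgr4 was among the most even, with 1954, 1972 and 1966 against 699.5, 689.8 and 751.2.

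**Figure D3:**
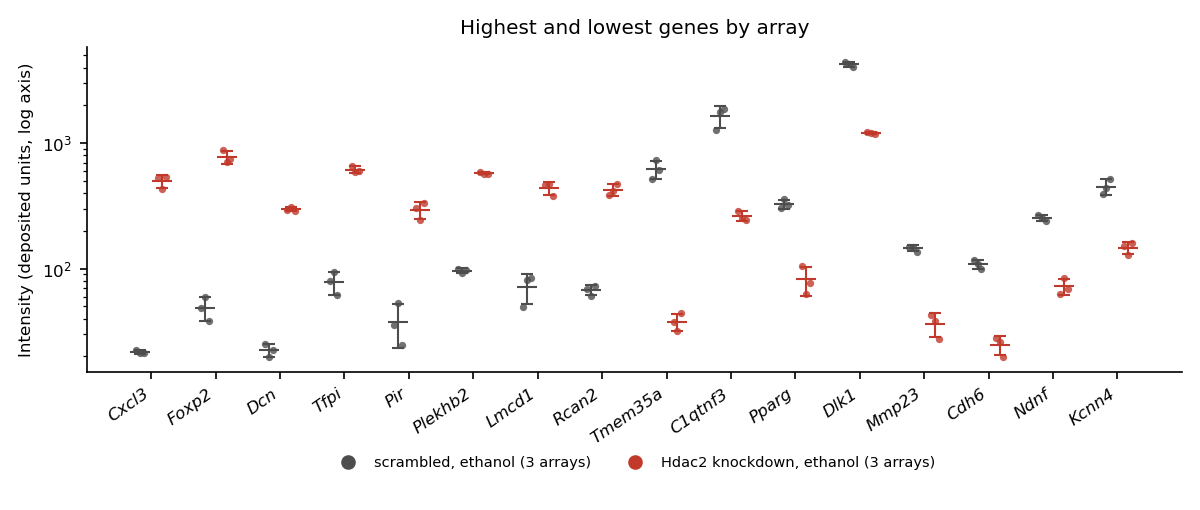
Intensity by array (log axis, deposited units) of the 8 genes that rose most and the 8 that fell most other than Hdac2, in 3 scrambled (grey) and 3 knockdown arrays (red). Bars give the mean and SD. In each of the 16 genes the arrays of the groups did not overlap; Cxcl3 went from a mean of 21.7 to 500.5 and Tmem35a from 621 to 37.9.

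Immediate early genes, which cells induce within minutes of growth factor or stress signals through transcription factors already present, were the list with the largest share of higher members. Of 30 tested members 13 rose and 1 fell, against 7.50% and 3.02% of all genes, and the median log2 fold change was 0.30 against 0.04. The zinc finger factor gene Egr2 led with 226.6, 249.6 and 256.9 against 745.1, 624.2 and 623.9 (log2 fold change 1.38 ± 0.13, limma adjusted p 1.64e-06). Junb, an AP-1 subunit, read 339.5, 385.3 and 359.3 against 644.2, 629.7 and 662.4 (0.81 ± 0.09). Neither gene overlapped between the groups.

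The other higher members included Egr1 (3765 ± 359 against 5808 ± 691), the stress factor Atf3 (0.76), the nuclear receptor Nr4a1 (0.62), Klf2 (0.60) and Ier2 (0.54). Phosphatases that switch off MAP kinases were among them: Dusp6 (0.62), Dusp2 (0.52), Dusp5 (0.52) and Dusp1 (0.51) rose, as did Zfp36 (0.44), which destabilises cytokine mRNAs. Dusp5 lost its call after quantile normalization (limma adjusted p 0.07446) or centring (0.05777) and without any one array other than scrambled array 2, and Dusp4 did not pass (0.39). Fos read 1507, 963.8 and 925.6 against 2448, 1772 and 2201 (0.93 ± 0.24, adjusted p 0.0178), and it lost its call without scrambled array 2, scrambled array 3, knockdown array 1 or knockdown array 3. Fosl1, an AP-1 subunit of the delayed response, was the member that fell, from 1075 ± 206 to 633 ± 9.23 (-0.73). Jun itself was at 2668 ± 87.9 and 2421 ± 242 and did not pass. With an array left out 11 or 12 members were higher, and after quantile normalization or centring 12 were.

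Serum response factor, which drives many of these genes, binds the CArG box. A window of the 250 bases before the RefSeq transcription start was found for 11 of the 13 higher members, and 3 of these held a CArG box, searched on both strands, against 1.4% of the 10734 tested genes with a window. The windows are shown because they hold the CArG boxes of the higher immediate early genes. They were chr10:67537316-67537565 (+ strand) for Egr2, chr19:53528895-53529144 (+ strand) for Dusp5 and chr7:28379229-28379478 (- strand) for Zfp36, in RefSeq's GRCm38.p6 assembly, and are given 5′ to 3′ in the direction of transcription with CArG boxes in capitals; in Dusp5 a pair of them adjoin.
Egr2: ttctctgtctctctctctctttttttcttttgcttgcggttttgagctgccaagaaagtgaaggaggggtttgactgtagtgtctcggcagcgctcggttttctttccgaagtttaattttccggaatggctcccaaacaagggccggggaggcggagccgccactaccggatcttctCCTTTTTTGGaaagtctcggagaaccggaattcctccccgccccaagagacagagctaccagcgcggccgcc
Dusp5: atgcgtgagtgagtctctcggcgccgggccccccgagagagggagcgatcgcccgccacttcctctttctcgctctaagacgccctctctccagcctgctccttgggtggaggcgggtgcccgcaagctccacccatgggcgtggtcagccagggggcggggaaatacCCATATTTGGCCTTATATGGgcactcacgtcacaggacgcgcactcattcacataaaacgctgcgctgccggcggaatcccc
Zfp36: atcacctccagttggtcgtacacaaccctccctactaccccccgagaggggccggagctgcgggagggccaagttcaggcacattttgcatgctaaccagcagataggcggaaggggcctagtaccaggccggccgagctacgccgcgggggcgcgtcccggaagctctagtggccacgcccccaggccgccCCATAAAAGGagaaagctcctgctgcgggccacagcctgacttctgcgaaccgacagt
An AP-1 site (TGANTCA) was in 0 of the 11 windows, and a cyclic AMP response element (TGACGTCA) in 1. A match is a description of the sequence only.

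Contractile and cytoskeletal genes, many of which also depend on serum response factor, showed a weaker pattern. Of 27 members 6 rose and 0 fell, with a median of 0.07. Gamma smooth muscle actin, Actg2, rose from 5483 ± 205 to 7542 ± 286 (0.46 ± 0.08) and calponin, Cnn1, from 7255 ± 311 to 9098 ± 151, while Acta2, alpha smooth muscle actin, at 32660 ± 633 and 35380 ± 569, did not pass. The count was 3 without scrambled array 1, 2 without knockdown array 1 and 3 without knockdown array 2, and after quantile normalization 6 were higher and 2 lower.

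Genes of cholesterol synthesis had calls in the lower direction only. Of 20 tested members 8 fell and 0 rose, 19 had a negative log2 fold change, and the median was -0.27. Idi1, the isomerase that makes the isoprenoid precursor of sterols, read 6585, 7411 and 6826 against 4888, 4765 and 5055 (log2 fold change -0.50 ± 0.10, limma adjusted p 0.00443). Mvd, which makes the substrate of Idi1, read 529.4, 499.8 and 508.2 against 393.2, 387 and 379.7 (-0.39 ± 0.07). The groups did not overlap for either.

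Sqle, which epoxidises squalene, fell from 6847 ± 138 to 5309 ± 192, Hsd17b7 from 1547 ± 98.4 to 1208 ± 56.9, Nsdhl from 2957 ± 47.7 to 2352 ± 192 and Insig1, which holds the SREBP regulators in the endoplasmic reticulum, from 1181 ± 90.3 to 899 ± 68.2. Hmgcs1, an early enzyme of the pathway, and Srebf2, the transcription factor that controls it, passed narrowly (-0.32 and -0.31) and lost their calls without any one of the 6 arrays. The other tested Srebf2 probe set, at 1359 in scrambled and 1325 in knockdown cells, gave -0.04 and did not pass. The mean of the Srebf2 probe sets gave -0.17 (limma adjusted p 0.2569). The decreases were small, and the count depended on the scaling and on single arrays: 15 members were lower after quantile normalization and 15 after centring, and 5 without knockdown array 2 or knockdown array 3. Insig1 lost its call without knockdown array 2 (limma adjusted p 0.05583) and Nsdhl without knockdown array 3 (0.06985).

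The regulatory windows of these genes shared a CCAAT box, the binding site of NF-Y, a factor that acts with SREBP at sterol genes. A CCAAT sequence on either strand was in 7 of the 7 lower members with a window, against 40.2% of all tested genes. An exact match to a fixed pattern of the sterol regulatory element was in 0 of 7, against 0.168%. Sequences that differ from this pattern by a single base were not counted, and the Hmgcs1 window below holds such a sequence. The count thus does not show that these windows lack a sterol regulatory element. The windows of 3 enzymes are shown as examples of these boxes in enzymes of the early pathway. They were chr13:8885356-8885605 (+ strand) for Idi1, chr8:122443423-122443672 (- strand) for Mvd and chr13:119690101-119690350 (+ strand) for Hmgcs1 (GRCm38.p6, RefSeq), with CCAAT or its reverse complement ATTGG in capitals.
Idi1: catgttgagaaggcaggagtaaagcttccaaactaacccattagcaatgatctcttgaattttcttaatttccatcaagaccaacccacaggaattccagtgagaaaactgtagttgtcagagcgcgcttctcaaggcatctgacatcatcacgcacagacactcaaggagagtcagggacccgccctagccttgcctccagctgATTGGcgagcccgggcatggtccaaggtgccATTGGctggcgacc
Mvd: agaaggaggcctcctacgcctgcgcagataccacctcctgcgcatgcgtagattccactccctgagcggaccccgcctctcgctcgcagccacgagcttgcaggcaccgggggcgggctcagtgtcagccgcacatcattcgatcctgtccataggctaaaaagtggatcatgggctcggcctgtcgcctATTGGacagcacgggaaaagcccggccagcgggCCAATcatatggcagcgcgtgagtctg
Hmgcs1: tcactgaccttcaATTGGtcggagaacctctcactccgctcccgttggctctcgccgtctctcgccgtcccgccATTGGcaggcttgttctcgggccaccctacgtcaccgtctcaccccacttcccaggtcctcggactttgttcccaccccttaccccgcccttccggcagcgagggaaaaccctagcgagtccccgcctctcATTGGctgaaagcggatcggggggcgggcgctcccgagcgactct
Only the 250 bases before the listed starts were searched, and nothing follows from a missing match about the factors.

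Lipid handling genes were divided. Of 30 tested members 5 rose and 4 fell (median 0.02). Pparg fell as described, and Lpin1, a phosphatase of triglyceride synthesis, fell from 384 ± 30.4 to 246 ± 23.7 (log2 fold change -0.61). Against this, Cebpd, a transcription factor that acts upstream of Pparg, rose from 1027 ± 116 to 1753 ± 32.2 (0.77), the fatty acid carriers Fabp4 and Fabp5 rose by 0.50 and 0.42, and Plin2, a lipid droplet coat protein, rose by 0.52. Fabp4 and Plin2 are known targets of Pparg. The lower calls were 2 without scrambled array 1, scrambled array 2 or knockdown array 3, and after centring 8 members were lower.

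Genes of xenobiotic and oxidative defence included lower members. Of 23 tested targets of NRF2, the transcription factor that responds to oxidants, 6 fell and 1 rose. Nqo1, a quinone reductase, read 1139, 1222 and 1027 against 540.7, 480.3 and 442.7 (log2 fold change -1.19 ± 0.18, limma adjusted p 0.000405). The drug exporter gene Abcc4 fell from 1705 ± 109 to 757 ± 97.1 and the carbonyl reductase gene Cbr3 from 1141 ± 66.5 to 569 ± 50.6. Their groups were separated in every array.

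The other targets varied. Gclc and Hmox1 fell by 0.32 and 0.35, whereas Gclm (919 ± 99.0 against 1039 ± 12.3) and Txnrd1 (8776 ± 246 against 8063 ± 154) did not pass, and Pir, 1 of the genes that rose most, is also on this list. Without scrambled array 2 the lower calls were 3. Of 18 tested glutathione transferases 4 fell and 1 rose: Gsta4 read 968.2, 1068 and 1011 against 442.3, 434.8 and 345.7 (-1.29 ± 0.12), and Mgst2 fell by 0.67, while Gstk1 rose from 29.9 ± 8.13 to 92.5 ± 23.6. After quantile normalization or centring 8 transferases were lower.

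Of 7 tested genes of the aryl hydrocarbon receptor pathway 2 fell. The receptor's repressor Ahrr went from 265 ± 21.7 to 95.7 ± 13.5 (-1.34 ± 0.12) and Tiparp, a feedback inhibitor, from 1707 ± 69.4 to 968 ± 34.6 (-0.81 ± 0.07). Cyp1b1, the target with the strongest signal, was at 9404 ± 486 and 8242 ± 210 and did not pass (adjusted p 0.0844). It was called lower in 5 of 18 alternatives, among them quantile normalization (limma adjusted p 0.002436).

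Chemokines went in both directions. Of 24 tested members 2 rose and 3 fell. Beside Cxcl3, Cxcl15 rose weakly from 17.7 ± 1.93 to 30.9 ± 5.95. Ccl7, which attracts monocytes, fell from 1103, 1151 and 1243 to 440.9, 427.3 and 440.1 (log2 fold change -1.38 ± 0.18, limma adjusted p 6.96e-05), Cxcl5, a neutrophil chemokine, from 260.6, 239.1 and 184.9 to 106.9, 87.97 and 83.6 (-1.16 ± 0.15), and Ccl2, encoded beside Ccl7, from 2355 ± 315 to 1414 ± 107 (-0.72). Cxcl1, a close relative and chromosomal neighbour of Cxcl3, read 3173, 2554 and 2587 against 3986, 3654 and 3658, higher in every knockdown array, but did not pass (0.45 ± 0.23, adjusted p 0.266). With only the compared arrays in the fit Cxcl1 was called higher (limma adjusted p 0.01334).

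The window before the Cxcl3 start is shown because this gene rose most of all. It lay at chr5:90785851-90786100 on the + strand (GRCm38.p6, RefSeq) and held a match to the NF-kB site, in capitals, which 5.44% of all tested genes had on either strand of their windows.
Cxcl3: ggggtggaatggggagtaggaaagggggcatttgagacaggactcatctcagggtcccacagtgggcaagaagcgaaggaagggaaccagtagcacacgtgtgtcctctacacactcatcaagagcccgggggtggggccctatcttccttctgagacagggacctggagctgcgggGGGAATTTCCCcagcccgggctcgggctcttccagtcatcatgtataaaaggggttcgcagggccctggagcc
Of the 5 called chemokines only Cxcl3 and 1 other had a window, and that other window held no match.

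Cytokine and interferon genes were equally mixed. Of 21 tested cytokines and NF-kB targets 3 rose and 2 fell. Tslp, an epithelial and stromal cytokine of allergic inflammation, read 263.5, 216.4 and 214.7 against 519.7, 445.4 and 513.7 (log2 fold change 1.04 ± 0.10, limma adjusted p 4.72e-06), and Ptgs2, cyclooxygenase 2, rose from 7369 ± 795 to 9725 ± 338. Ptges, the prostaglandin E synthase that acts after it, fell from 441 ± 9.33 to 295 ± 9.30, while Ptgis, which makes prostacyclin from the same intermediate, was among the genes that rose most. Il6 did not pass (24.7 ± 1.25 against 36.8 ± 6.95), except with only the compared arrays in the fit (limma adjusted p 0.03217).

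Of 20 tested interferon stimulated genes 4 rose and 2 fell. Gbp2, a guanylate-binding protein gene, read 1203, 1503 and 1637 against 2804, 2793 and 2788 (0.95 ± 0.09), and Bst2, which tethers viruses, rose by 0.78, whereas Ifit2 fell from 689 ± 50.7 to 440 ± 3.69. Of 12 genes of MHC class I presentation 3 rose and 0 fell, namely the immunoproteasome subunit genes Psmb10 (0.46) and Psmb8 (0.45) and the peptide trimming gene Erap1 (0.41, lost without scrambled array 3, knockdown array 1 or knockdown array 3). Of 14 genes of innate RNA sensing and micro-RNA processing 0 rose and 0 fell.

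Matrix genes changed in a pattern that differed by family. Of 33 tested collagens 7 rose and 5 fell. Among basement membrane collagens, Col4a1 read 5859, 5672 and 5536 against 8244, 8517 and 8537 (log2 fold change 0.57 ± 0.07, limma adjusted p 3.95e-05), Col4a2, which is transcribed from the same promoter region in the opposite direction, rose by 0.58 and Col4a5 by 0.40, whereas Col18a1 fell by 0.46 and Col4a6 did not pass (0.35). Col3a1, the fibrillar collagen of soft tissue, rose from 15620 ± 920 to 22230 ± 644 and Col8a1 from 3387 ± 76.3 to 5331 ± 247. The microfibrillar collagen genes Col6a1 and Col6a2 fell by 0.53 and 0.62, and the cartilage collagen Col2a1 fell from 9105, 9470 and 8912 to 5955, 6179 and 6273 (-0.58 ± 0.09).

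Of 11 small leucine-rich proteoglycans 4 rose and 2 fell. Lumican, Lum, rose with Dcn, from 19.2 ± 4.62 to 52.4 ± 2.87, while asporin, Aspn, an inhibitor of TGF-beta in cartilage, read 4104, 3634 and 3538 against 1916, 1841 and 1880 (-0.99 ± 0.13). Of 19 elastic fibre and microfibril genes 5 fell and 1 rose; Efemp1, which encodes fibulin 3, fell from 7503, 6866 and 6208 to 3521, 2911 and 3324 (-1.07 ± 0.09) and Emilin2 from 903 ± 55.9 to 496 ± 34.2, and Mfap5 rose by 0.76. The lower calls of this list were 2 without scrambled array 2 and 3 without scrambled array 3 or any one knockdown array.

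Of 23 matrix proteases and their inhibitors 7 rose and 2 fell. The membrane-bound protease Mmp16 read 561.8, 592.7 and 508.6 against 1298, 1087 and 1245 (1.10 ± 0.10). The ADAMTS proteases Adamts12, Adamts4, Adamts5 and Adamts1, which cut aggrecan and other matrix proteins, rose by 0.80, 0.68, 0.68 and 0.49, and the inhibitor Timp3 rose by 0.58. Its other tested probe sets gave 0.34, 0.31 and 0.32 and did not pass. Of 13 serpins and coagulation inhibitors 4 rose and 1 fell: beside Tfpi these were Serpinb1a (365 ± 77.1 against 988 ± 38.1), Serpinb9b (42.9 ± 3.58 against 117 ± 4.92) and Serpinb6b (25.2 ± 2.59 against 58.1 ± 2.48), intracellular inhibitors of granule proteases.

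Cartilage and bone genes fell in 3 of 20 tested members and rose in 1. Pth1r, the receptor for parathyroid hormone, rose from 199 ± 17.8 to 336 ± 18.2. Sox9, which drives cartilage formation, read 410 ± 17.4 and 334 ± 25.9 without passing, and Acan, the aggrecan gene, 349 ± 48.7 and 394 ± 32.0. Sox9 was called lower in 5 of 18 alternatives, among them quantile normalization (limma adjusted p 0.023), and Acan in none.

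Wnt signalling genes had calls in both directions. Of 47 tested members 10 rose and 3 fell, with a median of 0.02 against 0.04 over all genes. Most calls over all genes were higher too (71.3%). Wnt5b, a ligand of the pathway that does not use beta-catenin, read 44.8, 50.5 and 46.5 against 207.1, 190.7 and 209.3 (log2 fold change 1.79 ± 0.08, limma adjusted p 3.17e-10). Its receptors Fzd6 (694 ± 35.4 against 1602 ± 66.7) and Ror1 (194 ± 8.16 against 385 ± 39.2) rose too, and Fzd7 and Fzd1 by 0.41 and 0.35. Fzd1 lost its call with the mean of its probe sets (0.33, limma adjusted p 0.116) and without scrambled array 3, knockdown array 1 or knockdown array 2. All 6 arrays kept the groups apart for these genes.

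The R-spondin branch, which strengthens beta-catenin signalling, was split. The ligand genes Rspo3 (18.9 ± 0.620 against 42.1 ± 6.56) and Rspo2 (4952 ± 117 against 6340 ± 247) rose, Rspo1 fell near the lowest signal (21.8 ± 2.81 against 12.7 ± 0.597), and their receptor gene Lgr4 fell as given above. The secreted inhibitor gene Dkk3 fell from 3017 ± 344 to 1915 ± 195. The higher count of the Wnt list was 6 without knockdown array 1. After quantile normalization or centring 8 of its members were higher and 6 lower.

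In the TGF-beta and BMP pathway 5 of 43 members rose and 5 fell. Of the ligands, Bmp4 read 334.2, 326.2 and 370.9 against 730.9, 782.4 and 701 (log2 fold change 1.07 ± 0.13, limma adjusted p 4.93e-05), Inhbb and Inhba, the subunits of activins, rose by 0.99 and 0.54, and Tgfb2 went from 1159 ± 52.3 to 2101 ± 166. The BMP antagonist Grem1 read 7755, 7761 and 7532 against 3521, 3412 and 3129 (-1.19 ± 0.10). The BMP target genes Id1 and Id2 fell, from 5454 ± 222 to 3574 ± 307 and from 7957 ± 473 to 6197 ± 258. The lower calls were 3 without scrambled array 2, knockdown array 1 or knockdown array 2.

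Guidance receptors and ligands of growing axons, which also steer fibroblasts, rose in 10 of 50 members and fell in 2. The Eph receptor gene Epha3 read 254.5, 203 and 215.3 against 879.6, 716.8 and 811 (1.77 ± 0.11, limma adjusted p 3.16e-08), and its 4 tested probe sets had positive log2 fold changes. Epha7 rose from 27.5 ± 6.91 to 111 ± 17.2 and the repellent ligand gene Slit2 from 544 ± 78.6 to 1264 ± 58.9, while Slit3 fell from 59.7 ± 2.74 to 32.1 ± 5.72 and the netrin receptor gene Unc5b from 2830 ± 160 to 1744 ± 73.8. The other tested Unc5b probe set gave -0.20 and did not pass. Many of the other calls were marginal: 5, 6 and 4 members were higher without scrambled arrays 1, 2 and 3, and 4, 5 and 6 without knockdown arrays 1, 2 and 3.

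Growth factor genes were mixed. Of 36 angiogenic growth factors and receptors 6 rose and 4 fell. Hbegf, a ligand of the EGF receptor, rose from 2194 ± 163 to 3043 ± 98.7 and Pdgfa from 1297 ± 13.3 to 1689 ± 24.8, and Kitl, which encodes stem cell factor, fell from 734 ± 11.2 to 407 ± 39.9 (log2 fold change -0.83). The other tested Pdgfa probe set gave 0.14 and did not pass. The higher count was 3 without scrambled array 1 or any one knockdown array, and the lower count 2 without scrambled array 1. Of 18 genes of the insulin-like growth factor axis 5 rose and 1 fell, among them Pappa, the protease that frees the factor from its binding proteins (399 ± 78.3 against 624 ± 46.3), and Htra1 (4696 ± 110 against 6105 ± 105); the higher count was 3 without knockdown array 2. Of 18 Notch pathway genes 2 rose, the effector genes Hey2 (0.70) and Hes1 (0.55), and 0 fell, which is 11.1% called against 10.5% of all genes.

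Cell surface adhesion genes fell in 5 of 35 tested integrins and cadherins and rose in 3. Mcam, an adhesion molecule of pericytes, read 372.5, 525.1 and 534.4 against 1027, 1040 and 958.6 (log2 fold change 1.07 ± 0.12), and Cdh13 rose by 0.79. Cdh6 fell most, from 108 ± 8.92 to 24.6 ± 4.25, and Itga6, an integrin chain that binds laminin, fell by 0.47. Without knockdown array 2 the lower calls were 3.

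Transcription factors of embryonic patterning moved in both directions. Of 48 forkhead and other patterning factors 14 rose and 5 fell, with a median of 0.05. After Foxp2, the largest increases were in genes with low signal in scrambled cells: Irx1 read 27.2, 27.4 and 34.9 against 136.5, 110.1 and 131.2 (log2 fold change 1.63 ± 0.10, limma adjusted p 1.56e-08), Gata6 rose from 35.7 ± 11.4 to 101 ± 20.0 and Six2 from 17.9, 19.4 and 21.2 to 52.7, 51.6 and 65.6. Foxs1 and Foxf2 rose by 0.90 and 0.81. Foxo1 fell from 254 ± 36.8 to 151 ± 9.12, Prrx1, a factor of limb and connective tissue, from 8345 ± 567 to 5410 ± 155, and Foxf1, a relative of Foxf2, by 0.50. The higher count was 9 without scrambled array 3, and the lower count 9 after quantile normalization or centring.

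Of 18 tested Hox genes 4 rose and 2 fell. From the Hoxb cluster Hoxb4 read 27.3, 29.5 and 29.4 against 59.3, 63.6 and 84.5 (log2 fold change 0.92 ± 0.11), and Hoxb3 and Hoxb2 rose by 0.46 each; from the Hoxd cluster Hoxd8 rose by 0.48. From the Hoxa cluster Hoxa5 fell from 1381, 1186 and 1305 to 697.4, 669.4 and 676.6 (-0.90 ± 0.09) and Hoxa7 from 259 ± 41.0 to 112 ± 19.8. Without knockdown array 1 the higher calls were 2, with Hoxb2 and Hoxb3 lost. Hoxb2 was also lost without knockdown array 2, and Hoxb3 without scrambled array 1 or knockdown array 3.

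Genes characteristic of neurons rose in 6 of 33 tested members and fell in 0. Stmn2, a microtubule regulator of growing axons, read 1310, 1155 and 1041 against 3722, 3522 and 3404 (log2 fold change 1.59 ± 0.10, limma adjusted p 5.06e-08), and its other probe set had a log2 fold change of 2.36. The neuronal tubulin gene Tubb3 rose from 528 ± 21.2 to 1020 ± 66.9 and Map2 from 576.6, 563.1 and 587.9 to 1056, 1035 and 1039. Of 15 genes known to be induced by inhibitors of histone deacetylases 5 rose and 1 fell; Stmn2, Tubb3 and Bex1 stand on both lists, and the others were Cdkn1c (149 ± 15.6 against 242 ± 10.2) and Txnip (1009 ± 37.4 against 1520 ± 27.5). Bex1 rose from 15.97, 26.4 and 21.3 to only 41.1, 49.4 and 50.3, a level still near the middle of all probe sets. Cdkn1a, which encodes p21 and is the best known target of such inhibitors, read 2811 ± 98.5 and 2646 ± 55.6 and did not pass (-0.09 ± 0.08).

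Imprinted genes, which are expressed from 1 parental allele, rose in 4 of 32 tested members and fell in 4. Slc38a4, an amino acid transporter gene, read 1284, 1356 and 1247 against 3369, 3160 and 3396 (log2 fold change 1.34 ± 0.10, limma adjusted p 2.37e-07), and Dcn and Cdkn1c are on this list too. Plagl1, a zinc finger factor that regulates other imprinted genes, fell from 5403, 4997 and 5000 to 2711, 2607 and 2683 (-0.94 ± 0.07). Dlk1 fell as given above, and Meg3 and Mirg, the noncoding RNAs of the same domain, fell by 0.52 and 0.50. Meg3 and Mirg both lost their calls without scrambled array 1 (limma adjusted p 0.154 and 0.1363), knockdown array 2 or knockdown array 3, and Mirg also without knockdown array 1. Of the list, 2 members were lower without knockdown array 2 or knockdown array 3, against 8 after quantile normalization or centring.

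**Figure D4:**
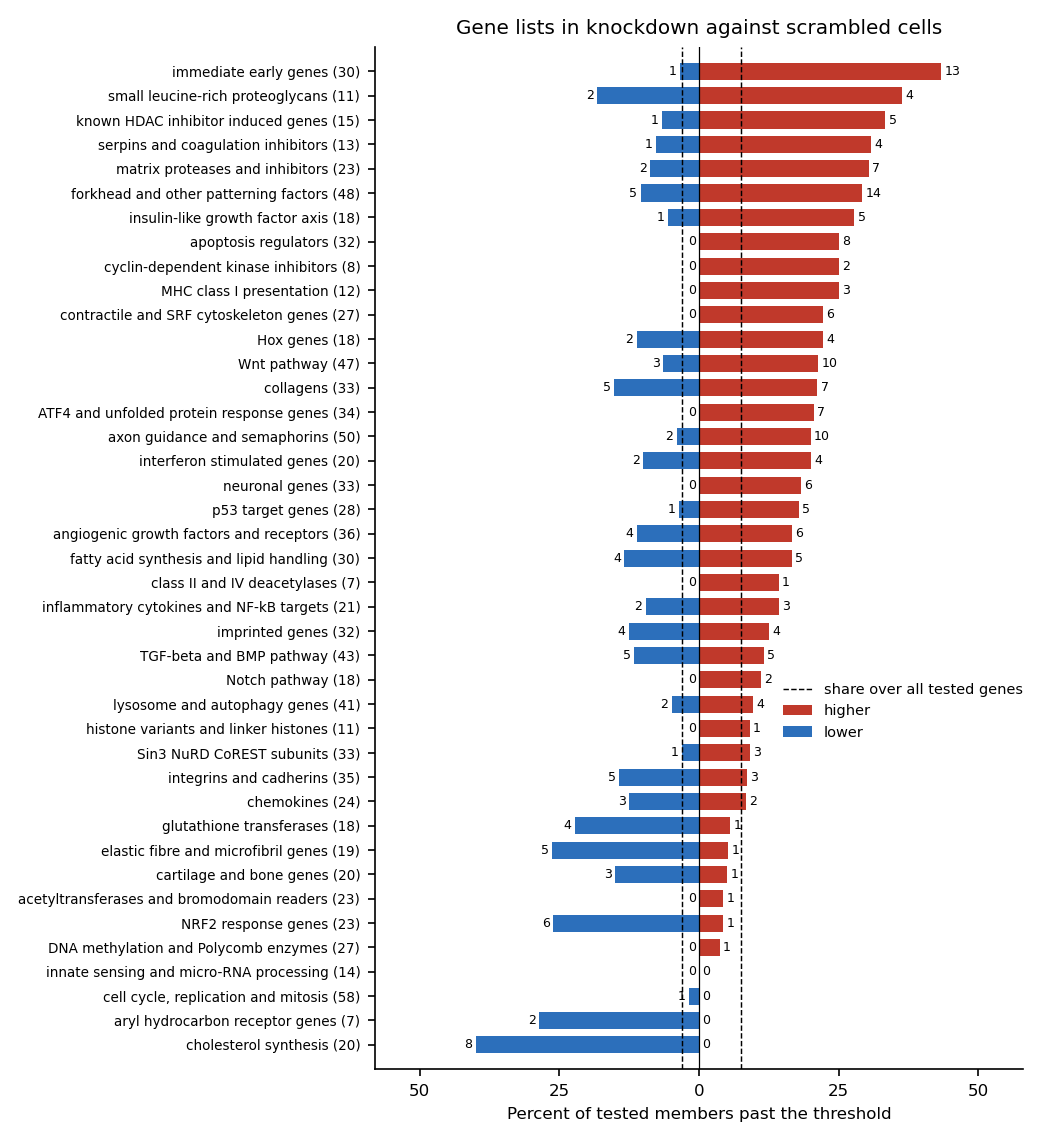
Percent of the tested members of each gene list that were higher (red, right) or lower (blue, left) in Hdac2 knockdown cells; numbers in brackets give the tested members and numbers at the bars the calls. Dashed lines mark the share over all tested genes, 7.50% higher and 3.02% lower; immediate early genes (13 of 30) reach farthest to the right and cholesterol synthesis genes (8 of 20) farthest to the left.

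Few cell cycle genes passed. Of 58 tested genes of the cell cycle, replication and mitosis 0 rose and 1 fell. The median log2 fold change was -0.07 against 0.04 over all genes, and 45 members had a negative and 13 a positive value. The proliferation marker Mki67 read 7345 ± 475 and 6592 ± 302, the mitotic kinase gene Cdk1 9047 ± 47.9 and 8288 ± 326, and the replication licensing gene Mcm2 2632 ± 102 and 2298 ± 57.3, none of them past the threshold. The lower gene was the retinoblastoma gene Rb1, from 886 ± 76.1 to 702 ± 45.3 (-0.33); the mean of its probe sets gave 0.08, and it lost its call without scrambled array 2, knockdown array 2 or knockdown array 3. After quantile normalization 5 members were lower and after centring 7, with 0 higher in either. Among 8 inhibitors of cyclin-dependent kinases 2 rose, Cdkn1c and Cdkn2c, the latter from 1107, 1108 and 1115 to 1718, 1642 and 1610 (0.57 ± 0.08).

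Apoptosis genes had more calls in the higher than in the lower direction. Of 32 apoptosis regulators 8 rose and 0 fell, against 7.50% and 3.02% of all genes, and the median was 0.12. After quantile normalization or centring 1 was lower. After Ripk3, Bcl2l11, which encodes the BH3-only protein BIM, read 1012, 831.2 and 677.6 against 1944, 1762 and 1971 (log2 fold change 1.17 ± 0.17, limma adjusted p 0.000193), and the inflammatory caspase gene Casp4 285.2, 244.2 and 191.1 against 537.2, 467.4 and 502.1. The BH3-only genes Pmaip1 and Bbc3 rose by 0.65 and 0.51, and Bbc3 lost its call without knockdown array 2. With an array left out 7 or 8 members were higher.

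Pmaip1 and Bbc3 are also targets of p53, but the p53 list as a whole was divided: 5 of 28 rose and 1 fell, with a median of -0.01. Perp, a p53 target of cell junctions, fell from 1657, 1666 and 1590 to 783.1, 792.5 and 783.1 (-1.04 ± 0.08). The higher count was 3 without any one scrambled array and 2 without any one knockdown array. Of 34 genes of ATF4 and the unfolded protein response 7 rose and 0 fell (median 0.12), among them Ppp1r15a, which ends the translational block of stress (523 ± 74.7 against 777 ± 36.8), and 4 were higher without scrambled array 1 or knockdown array 2.

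The lysosome and autophagy list had 4 higher and 2 lower members among 41, which is 14.6% called against 10.5% of all genes. Among the cathepsins, Ctsc was at 736.9, 760.2 and 706.6 against 1706, 1811 and 1764 (log2 fold change 1.24 ± 0.08, limma adjusted p 8.49e-08) and Ctsk, the collagen-degrading cathepsin, rose from 24.1 ± 1.56 to 79.1 ± 15.7, while Mitf, a transcription factor of the lysosomal programme, fell from 495 ± 50.9 to 289 ± 36.2. The higher count was 2 without scrambled array 1, scrambled array 3, knockdown array 1 or knockdown array 2. Of 11 histone variants and linker histones 1 rose, Macroh2a1 (2309 ± 313 against 3390 ± 85.2), and 0 fell (9.09% called).

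The knockdown was also compared with its scrambled control in cells in which tamoxifen had deleted Hdac1, on 6 further arrays. There 7598 genes (56.8%) passed, 4836 (36.1%) higher and 2762 (20.6%) lower. The excess of higher genes depended on the scaling there too. After quantile normalization 4019 were higher and 4177 lower, and after centring 3825 were higher and 4477 lower. The log2 fold change of Hdac2 itself was -2.78 with Hdac1 deleted and -2.86 with Hdac1 present, a difference of 0.08 ± 0.11 (limma adjusted p 0.612). The comparisons share no array, but their cells may come from the same infected populations. The backgrounds also differed in tamoxifen and the Cre activity it brings. Loss of Hdac1 cannot be told apart from these in any difference between the backgrounds. Of the 1004 genes that rose with Hdac1 present, 701 (69.8%) rose and 104 (10.4%) fell with Hdac1 deleted, and these 701 made up 14.5% of the genes that rose there. Of the 404 that fell, 191 (47.3%) fell again, which was 6.92% of the genes that fell there, and 116 (28.7%) rose. The Pearson correlation of the log2 fold changes was 0.34 over all 13382 genes and 0.52 over the 1408, both across genes, which are not independent replicates.

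Differences in size were common. The test of the difference between the hairpin's effects passed for 5738 genes (42.9%), 3443 (25.7%) with a higher and 2295 (17.1%) with a lower value when Hdac1 was deleted, and among the 1408 called genes for 898. After quantile normalization 3222 of the differences were higher and 3459 lower, and after centring 3192 were higher and 3332 lower. Several genes that rose clearly with Hdac1 present rose much further without it. Dcn went from 37.3 ± 8.85 to 3979 ± 353 in Hdac1-deleted cells (log2 fold change 6.24, difference 3.21, limma adjusted p 5.43e-10), Vip from 1022 ± 168 to 18930 ± 2044 (4.20, difference 1.91) and Ripk3 from 116 ± 27.6 to 1624 ± 42.9 (3.66, difference 1.45).

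For another set the step with Hdac1 present was small. Bex1 went from 26.8 ± 8.56 to 17490 ± 3392 with Hdac1 deleted (8.68, difference 7.91, limma adjusted p 3.69e-13) against 21.2 ± 5.23 to 46.9 ± 5.06 with Hdac1 present. Col14a1, Syt17, Sfrp1 and Serpinb6b rose by 0.25, 0.50, 0.51 and 0.85 with Hdac1 present and by 5.50, 4.80, 4.76 and 4.79 without it. The calls of Col14a1 and Sfrp1 with Hdac1 present were marginal: Col14a1 lost its call without any one of the 6 arrays and Sfrp1 without scrambled arrays 1 or 2 or knockdown arrays 1 or 2. S100a4, a calcium-binding protein gene of fibroblasts, fell by 0.48 with Hdac1 present and fell by 4.66 without it, from 24200 ± 2479 to 948 ± 180.

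For other genes the effect was smaller or opposite with Hdac1 deleted. Cxcl3 rose by 3.77 with Hdac1 present and by 0.67 with Hdac1 deleted, where it went from 21.5 ± 2.32 to 43.6 ± 3.86 (difference -3.10, limma adjusted p 1.42e-10). Lmcd1 rose by 2.40 and, with Hdac1 deleted, was at 74.4 ± 16.4 and 57.6 ± 22.9 (-0.34, not past the threshold). Dlk1, C1qtnf3 and Ndnf fell with Hdac1 present and rose with Hdac1 deleted, by 1.52, 0.69 and 0.94. With Hdac1 deleted the C1qtnf3 arrays overlapped, at 3521, 3859 and 3194 in scrambled and 6382, 3647 and 7795 in knockdown cells. Foxp2, by contrast, rose by 3.63 and 2.96 (difference -0.67, adjusted p 0.015), and for Tmem35a the effects were -3.56 and -2.31.

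**Figure D5:**
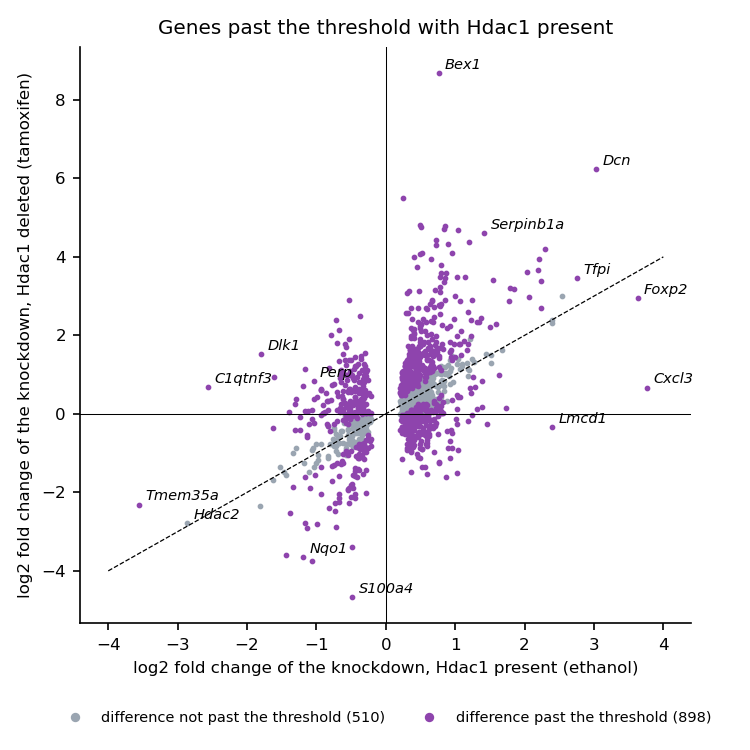
Log2 fold change of the hairpin against Hdac2 with Hdac1 present (horizontal, ethanol) and with Hdac1 deleted (vertical, tamoxifen) for the 1408 genes past the threshold with Hdac1 present. Purple points (898) differ between the backgrounds by limma, grey points (510) did not pass that test, and the dashed line marks equal values; Bex1 lies highest, and Cxcl3 and Lmcd1 lie far below the line at the right.

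The gene lists also differed, against 36.1% of all genes higher and 20.6% lower with Hdac1 deleted. All 20 cholesterol synthesis genes were lower with Hdac1 deleted, with a median of -0.99 against -0.27, and 14 of the differences passed. In the cell cycle list 47 of 58 genes were lower with Hdac1 deleted (median -1.51), against 1 with Hdac1 present, and 49 differences passed. Immediate early genes were 13 higher and 11 lower with Hdac1 deleted, against 13 and 1; Dusp1, Dusp5, Nr4a1 and Klf2 rose with Hdac1 present and fell with it deleted.

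Cells with intact Hdac1 alleles gave a further contrast. Between the +/+ cells and the scrambled cells with deleted Hdac1, which share no array with the knockdown comparison, 3227 genes (24.1%) passed. Of the 80 genes that rose by 2-fold or more with the knockdown, 39 were higher and 15 lower in the +/+ cells (over all genes 11.3% were higher and 12.8% lower), and of the 48 that fell by 2-fold or more 8 were higher and 31 lower. Tfpi differed by 4.61 and Ripk3 by 3.28 in this contrast, while Cxcl3 differed by 0.16 and Foxp2 by 0.34, neither of these past the threshold. Both groups had tamoxifen, but whether the +/+ cells carried the viruses is unstated, so this is not a contrast of Hdac1 alone. Tfpi was at 78.4 ± 16.2 in floxed scrambled cells with Hdac1 present, 87.0 ± 11.2 in those with Hdac1 deleted and 2482 ± 73.5 in +/+ cells. Ripk3 was at 197 ± 26.7, 116 ± 27.6 and 1251 ± 106 in the same order. For both genes the floxed scrambled cells were far below the +/+ cells whether or not Hdac1 was present.

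The labelled cell type was checked against marker lists. All 12 fibroblast markers were above the 40th percentile of their array on at least 1 of the 6 arrays, and their summed intensity was 191300 to 198200 in scrambled and 193300 to 199700 in knockdown cells. Within this list 1 marker rose (Col3a1) and 3 fell: Thy1, a surface glycoprotein, from 280 ± 10.2 to 127.5 ± 21.1 (log2 fold change -1.06), Prrx1 by 0.62 and S100a4 by 0.48. Of the 12 macrophage markers 5 and of the 10 endothelial markers 7 stayed below that percentile on all 6 arrays, and their sums overlapped between the groups (457 to 491 against 456 to 505, and 489 to 573 against 477 to 529). Sums for some other types did not overlap between the groups. The sum of 8 chondrocyte markers was 9811 to 10380 in scrambled and 6812 to 7093 in knockdown cells. In the same order it was 1044 to 1179 and 1627 to 1823 for 7 neuron and glia markers. For 9 pericyte and smooth muscle markers it was 34520 to 35510 and 38120 to 39340. For 10 epithelial markers it was 474 to 595 and 659 to 771, and for 10 skeletal muscle markers 188.5 to 192 and 197 to 208. Single bright genes carried most of some sums: Col2a1 (9162 and 6136), Acta2 (32660 and 35380, not past the threshold) and Krt19 (340 and 523). In the neuron and glia sum the largest change was that of Tubb3 (528 and 1020), and Nes (489 and 618) did not pass. Few tested members were called higher and lower: 0 and 2 of 6 chondrocyte, 1 and 1 of 7 pericyte and 1 and 1 of 6 epithelial markers. For neuron and glia it was 1 and 0 of 4, and for skeletal muscle 0 and 0 of 5. In such bulk RNA a change in the share of a cell type and a change of RNA per cell cannot be told apart, and the part of these markers in the results above was not tested.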

How the data were processed

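Total RNA of 15 mouse embryonic fibroblast samples was hybridised to Affymetrix Mouse 430 v2 arrays after a 1-cycle labelling reaction, per the labels' protocols. The deposited table holds 1 linear intensity for each of 45037 probe sets and array; the authors' summarisation and normalization are not given in the sources used here. Medians per array were 24.09 to 25.7 in the 6 compared arrays. With Hdac1 deleted they were 24.97 to 28.6 in scrambled and 29.06 to 30.72 in knockdown arrays. Values were used as log2(intensity + 16). A probe set was kept if 3 or more arrays had it above their own 40th percentile, and the brightest probe set stood for each gene, leaving 13382 genes. Of the probe sets 34945 had 1 gene symbol, 932 several and 9160 none in the platform annotation. All 5 groups were fitted together with limma 3.58.1 in R 4.3.3, with Benjamini-Hochberg adjusted p over all genes and a threshold of 0.05; the same fit gave the hairpin's effect with tamoxifen and the difference of the effects. With 3 arrays a group, precision is limited by their number. In data simulated for this comparison over 13382 genes, 15.2%, 71.2% and 99.2% of genes changed by 0.25, 0.5 and 1 (log2) were called, and 5.76% of calls were false. Far fewer genes were changed in the simulation than the 1408 called in the data, and the rest had no difference between any groups. The adjustment is stricter when fewer genes change, so the simulated shares of small changes may understate what could be called here. Arrays with the same replicate number did not deviate together (r 0.07, 0.01 and 0.07), so the numbers were not taken as pairs, and 0 pairs of arrays were identical.

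The genes named were the class I deacetylases, the 15 that rose and the 15 that fell most with arrays that did not overlap (clone names passed over), up to 8 called and 3 other members of each gene list by size, and the 5 highest and 5 lowest differences between the backgrounds; probe set details of these genes were looked up afterwards. A few genes outside that order are examples chosen after their values were seen. The comparison and the gene lists were chosen with earlier results of these data known. Promoter windows are the 250 bases before starts in RefSeq's GRCm38.p6 tables. Alternatives were other filters, pseudocounts, probe set rules, scalings, variance models, a replicate block and leaving out each array.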

Additional observations from a re-analysis of the deposited data

Results flagged for a closer look

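The effect of the hairpin against Hdac2 differed between ethanol cells with Hdac1 and tamoxifen cells without it, by the limma test of the difference itself. It did so for 3443 genes with a higher and 2295 genes with a lower value when Hdac1 was deleted, counts that depended on the scaling. Hdac1 loss and tamoxifen cannot be told apart here. Of the class I deacetylases only Hdac3 differed, by 0.26 on the log2 scale (-0.05 with Hdac1 present and 0.21 without).

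Among the genes that rose most with Hdac1 present, the difference was positive for Dcn (3.21), Vip (1.91), Tmtc1 (1.73), Ptprz1 (1.57), Ripk3 (1.45), Plac8 (1.13), Sorbs2 (0.91), Tfpi (0.69) and Ptgis (0.46). It was negative for Cxcl3 (-3.10), Lmcd1 (-2.74) and Foxp2 (-0.67).

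Among those that fell most, the difference was positive for Dlk1 (3.33), C1qtnf3 (3.25), Ndnf (2.55), Bnc1 (1.46), Cdh6 (1.25) and Tmem35a (1.24). It was negative for Pcolce2 (-2.16) and Ccl7 (-1.15), which fell further with Hdac1 deleted.

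The differences of largest size among genes called with Hdac1 present were those of Bex1 (7.91), Col14a1 (5.25), Syt17 (4.29), Sfrp1 (4.25) and Serpinb6b (3.94) in the higher direction. In the lower direction, beside Cxcl3 and Lmcd1, they were those of S100a4 (-4.18), Styk1 (-2.90) and Rtl3 (-2.53). Rtl3, a gene derived from a retrotransposon, rose by 1.03 with Hdac1 present and fell by 1.51 without it. Col14a1 and Sfrp1 were called only marginally with Hdac1 present, as given above.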

How the results depend on the processing

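Of the called genes checked one by one, 158 of 186 kept their direction and call in every alternative that gave a value for them (17 or 18). The other 28 lost the call in at least 1. Of 18 named genes that were not called, 7 were called in at least 1, namely Col4a6, Cxcl1, Cyp1b1, Il6, Mcm2, Sox9 and Txnrd1. The genes higher in Hdac2 knockdown cells (1004) were 1919 with array weights, and the lower genes (404) were 614 with only the compared arrays in the fit, 973 after quantile normalization, 1087 after median centring and 888 with array weights. With a replicate block, which the array deviations do not bear out as a pairing, 918 were higher and 380 lower. Leaving out 1 array gave 620 to 784 higher and 259 to 343 lower. With Hdac1 deleted, the lower genes (2762) were 4177 after quantile normalization and 4477 after median centring, and 4256 to 5316 higher and 2307 to 3140 lower with 1 array left out. Of the differences between the backgrounds, the higher ones (3443) were 3222 after quantile normalization and 3192 after median centring. The lower ones (2295) were 3459 and 3332 in the same order. With 1 array left out 3073 to 3933 differences were higher and 1957 to 2808 lower. Between +/+ and Hdac1-deleted cells, the higher genes (1517) were 2503 after median centring and 690 with array weights, the lower (1710) were 911 with array weights, and 975 to 2291 were higher and 1282 to 2045 lower with 1 array left out. The log2 fold change of Rb1 became 0.08 with the mean of its probe sets, whose weaker probe set is higher (18.8 against 33.0), and that of Dlk1 became 0.00 without probe sets that may match several transcripts, since only a weak probe set remained. Cdkn1a, which was not called, went from -0.09 to 0.07 with the mean of its probe sets. The cause of the other changes was not tested. Signal over background limits genes near the array median. In the simulation, which changed few genes, changes of 0.25 on the log2 scale were mostly not called.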
